A study of Mus musculus with 6 samples.

Results

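Il10ra and Il10rb encode the 2 chains of the receptor for IL-10, and they were followed here through the named cell types of 6694c2vTRP1 pancreatic tumors after PBS, mono-IL10 or IL10/2-Trikine. They are 2 of the 34187 genes in the count matrices, with the identifiers ENSMUSG00000032089 (Il10ra, on chromosome 9) and ENSMUSG00000022969 (Il10rb, on chromosome 16). They were chosen by name, because both cytokines act through these chains. Among cell types with at least 50 cells, Il10ra was highest in neutrophil-like, macrophage-like and dendritic cell-like cells. It was at about 1 UMI (a unique molecular identifier, counting 1 captured transcript) per 10,000 in macrophage-like cells. In T and NK cells it was lower, and in tumor cells almost absent. Il10rb was found in myeloid, T, NK and tumor cells and varied over a narrower range. After IL10/2-Trikine, Il10ra in macrophage-like cells was lower by 14.2% than after PBS and by 21.0% than after mono-IL10. Both passed the threshold of the edgeR test, as did 18.0% and 13.0% of all genes. The difference from PBS stayed past it in 11 of 15 fits that left out 1 mouse. It did not after thinning cells to equal depth. The difference from mono-IL10 stayed past it in 15 of 15 such fits. As levels per mouse, neither difference held after adjustment (exact permutation tests, adjusted p = 0.167 for both). The median UMIs per macrophage-like cell were lowest after IL10/2-Trikine. Il10rb differed from PBS and mono-IL10 by -0.612% and -11.5%, neither past the threshold, and the ratio of the 2 chains did not differ past the threshold either. In cells with at least 2000 genes, Il10rb was called lower after IL10/2-Trikine than after mono-IL10.

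IL-10 binds first to IL-10Rα, the chain specific to it, and this pair then takes in IL-10Rβ, which is shared with the receptors for IL-22 and the lambda interferons. The kinases JAK1 and TYK2, held by the 2 chains, phosphorylate mainly STAT3, and in macrophages this program restrains inflammatory cytokines and induces genes such as Socs3. A cell therefore needs both chains to respond to IL-10. Mono-IL10 is a monomeric IL-10 that dimerises the 2 chains, and IL10/2-Trikine adds a binder of IL-2Rβ (encoded by Il2rb), so that cells carrying that chain as well also signal through STAT5.

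The mice bore subcutaneous tumors of the 6694c2vTRP1 line, from a KPC model of pancreatic cancer that the study grew in C57BL/6 mice, and received 2 intraperitoneal injections, the first on day 8. Tumors were harvested on day 14. The study used male and female mice for this tumor model and states their age for a growth experiment with the related line. The cytokines were dosed by mass per mouse, with a larger mass of IL10/2-Trikine. For the growth experiment with the related line the study lists the same masses and a common dose of functional cytokine. Whether the doses matched per molecule in the profiled mice was not tested. Cells isolated with CD45 beads from 5 hashtagged mice per group were pooled into 1 library per treatment (droplet 5′ RNA sequencing), so library and treatment cannot be told apart. The 2 cytokine groups share their PBS controls. The mouse was the unit of replication, and p-values measure the spread between mice within 1 library each.

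The libraries held 30528 to 55504 barcodes and 364814102 to 515236552 gene UMIs. The deposited annotation covered T and NK cells only, in 12 clusters with 2084 cells of these 3 groups. The other cells were clustered and named from markers, with 29.1% of all clustered cells left unnamed and not described here, and a class so named is written with the ending "-like". The bead isolation had not removed tumor cells, since 38978 of 92851 clustered barcodes were tumor epithelial-like and 17881 were macrophage- or monocyte-like (below, macrophage-like). A cluster of 1771 cells led by Ccl24, Chil3 and Ccr2 stayed unnamed and outside the macrophage-like class. Its macrophage or monocyte score was 0.248, under the naming limit of 0.25. Between 408 and 700 barcodes were shared by a pair of libraries, which is 1.34% to 1.58% of the smaller one. All levels below are UMIs per 10,000 UMIs of the same cells.

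Among the classes listed here, Il10ra, the ligand-specific chain, was highest in myeloid cells. Neutrophil-like cells held 664 Il10ra UMIs in 1043 cells, a level of 2.11 per 10,000 (95% Poisson interval 1.95 to 2.28). Macrophage-like cells held 11992 UMIs, at 1.23 per 10,000 (1.21 to 1.25). Dendritic cell-like cells held 1388 UMIs in 1814 cells, at 0.911 (0.864 to 0.961). Mast cell- or basophil-like cells held 0.535, from 52 UMIs in 155 cells. In all annotated T cells the level was 0.233 (0.191 to 0.281), and in the annotated NK cells it was 0.141 (0.104 to 0.188). Endothelial-like cells held 0.0672, fibroblast-like cells 0.0327 and tumor epithelial-like cells 0.0114 (0.0106 to 0.0122, from 791 UMIs). These intervals cover counting error only.

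Il10rb, the shared chain, followed the same order among the myeloid cells but over a narrower range. Its level was 1.51 in neutrophil-like cells (1.38 to 1.65, 474 UMIs), 0.911 in macrophage-like cells (0.892 to 0.930, 8900 UMIs) and 0.434 in dendritic cell-like cells (0.402 to 0.468, 661 UMIs). In T cells it was 0.319 (0.27 to 0.375) and in NK cells 0.307 (0.25 to 0.372). Endothelial-like cells held 0.287, mast cell- or basophil-like cells 0.226, tumor epithelial-like cells 0.156 (10885 UMIs) and fibroblast-like cells 0.152.

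**Figure D1:**
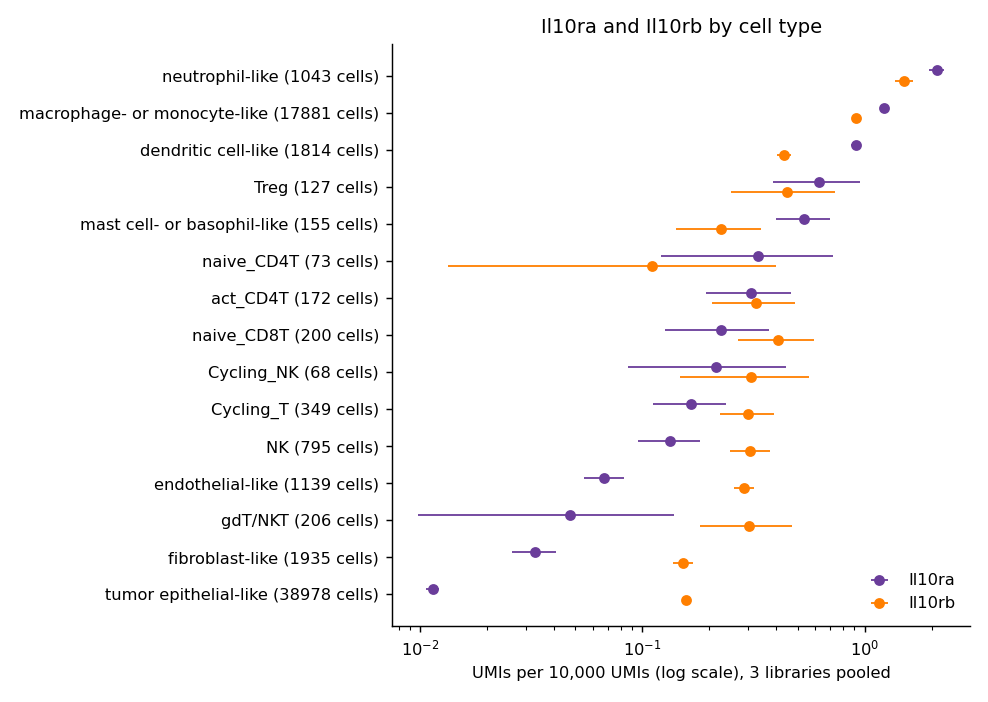
Level of Il10ra (purple) and Il10rb (orange) in 15 cell types with at least 50 cells, in UMIs per 10,000 UMIs on a log axis, all 3 libraries pooled, with 95% Poisson intervals as bars. Il10ra spans from 0.0114 in tumor epithelial-like to 2.11 in neutrophil-like cells, and Il10rb stays between 0.11 and 1.51.

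The share of cells with at least 1 UMI depended on depth as well as on level. It was 41.7% for Il10ra and 35.8% for Il10rb in macrophage-like cells, with a median of 4463 UMIs per cell, and 43.6% and 32.9% in neutrophil-like cells, with a median of 2647. Tumor cells were positive for Il10ra in 1.69% at a median of 12376 UMIs. Shares after thinning each cell to 2000 UMIs (cells below that left out) are expected values over all possible draws, not counted cells. So thinned, Il10ra was found in 34.9% of neutrophil-like, 21.5% of macrophage-like, 16.4% of dendritic cell-like, 4.43% of T, 2.75% of NK and 0.261% of tumor cells. Il10rb was found in 25.4%, 17.0%, 7.97%, 6.16%, 6.42% and 3.45% of the same cells.

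The orders were tested within mice that had at least 10 cells of both types, by exact two-sided sign-flip permutation tests adjusted over the 10 neighbouring pairs. For Il10ra the means over mice were 2.06 ± 0.626 in neutrophil-like cells (SD, n = 12), 1.23 ± 0.120 in macrophage-like cells (n = 15) and 0.874 ± 0.172 in dendritic cell-like cells (n = 15). They were 0.241 ± 0.168 in T cells (n = 15), 0.157 ± 0.167 in NK cells (n = 14) and 0.0150 ± 0.00793 in tumor cells (n = 15). Neutrophil-like cells were above macrophage-like cells in 11 of 12 mice (exact adjusted p = 0.00391), macrophage-like above dendritic cell-like cells in 14 of 15 (exact adjusted p = 0.00061) and dendritic cell-like above T cells in 15 of 15 (exact adjusted p = 0.000305). T and NK cells did not differ beyond their spread, with T cells higher in 7 of 14 mice (exact adjusted p = 0.272). NK cells were above tumor cells in 10 of 14 mice (exact adjusted p = 0.00391), and in IL10/2-Trikine mice this held in 2 of 5.

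For Il10rb, neutrophil-like cells (1.43 ± 0.461, SD, n = 12) were above macrophage-like cells (0.903 ± 0.0539, n = 15) in 11 of 12 mice (exact adjusted p = 0.00895). Macrophage-like cells were above dendritic cell-like cells (0.461 ± 0.141, n = 15) in 15 of 15 mice (exact adjusted p = 0.000305). The lower neighbours could not be separated. Dendritic cell-like cells exceeded T cells (0.345 ± 0.179, n = 15) in 11 of 15 mice (exact adjusted p = 0.167), T cells exceeded NK cells (0.234 ± 0.158, n = 14) in 10 of 14 (exact adjusted p = 0.167) and NK cells exceeded tumor cells (0.153 ± 0.0138, n = 15) in 10 of 14 (exact adjusted p = 0.118).

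The 2 chains were thus not in the same proportion everywhere. There were 2.10 Il10ra UMIs for each Il10rb UMI in dendritic cell-like cells, 1.40 in neutrophil-like, 1.35 in macrophage-like, 0.730 in T, 0.461 in NK and 0.0727 in tumor cells. The ratio of 2 genes in 5′ counts also carries their capture efficiency, so only its change from one cell type to the next is readable. Over 15 cell types the Pearson correlation of the 2 chains on a log scale was 0.766, which ranked Il10rb at place 160 among 7042 genes in likeness to Il10ra.

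C1q (the summed C1qa, C1qb and C1qc, complement genes of macrophages) was measured beside the chains, since droplets can hold free RNA of other cells. It was at 73.6 per 10,000 in macrophage-like cells, 15.6 in dendritic cell-like, 2.88 in neutrophil-like, 1.29 in T, 0.790 in NK and 0.289 in tumor cells. For each 100 C1q UMIs, macrophage-like cells held 1.67 Il10ra UMIs. Tumor cells held 3.93, dendritic cell-like cells 5.84, NK cells 17.9, T cells 18.1 and neutrophil-like cells 73.3. The ratio in tumor cells was the closest to that of macrophage-like cells. The part of free RNA in these levels was not tested.

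Among the annotated lymphocytes, regulatory T cells (Treg) were highest among the clusters with at least 50 cells. The Treg cluster held 21 Il10ra UMIs in 127 cells, at 0.626 per 10,000 (0.388 to 0.958), and 15 Il10rb UMIs, at 0.447 (0.25 to 0.738). This is also the cluster with the most Il10 itself, at 3.52 per 10,000 against 0.509 in macrophage-like cells. The act_CD4T cluster (172 cells) held 0.310 and 0.324, naive_CD4T (73 cells) 0.330 and 0.11, naive_CD8T (200 cells) 0.226 and 0.407, and Cycling_T (349 cells) 0.166 and 0.298 of Il10ra and Il10rb. The NK cluster (795 cells) held 0.133 and 0.306, and Cycling_NK (68 cells) 0.215 and 0.307.

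The gdT/NKT cluster was the lowest annotated cluster in Il10ra among those with at least 50 cells. It held 3 Il10ra UMIs in 206 cells, at 0.0475 (0.00979 to 0.139), and 19 Il10rb UMIs, at 0.301 (0.181 to 0.469). These intervals cover counting error in pooled cells only, and capture can differ between the 2 genes. The ISG+CD8T cluster held 8 Il10ra UMIs in 16 cells (1.58, 0.681 to 3.11) and 0 Il10rb UMIs, which allows a level of up to 0.592 per 10,000. Th17/ILCs (21 cells) held 1 Il10ra UMI and 0 Il10rb UMIs, which allows up to 14.3% of cells with a captured Il10rb UMI. Such a limit does not bound the share of cells that express the gene uncaptured. Cycling_Treg (32 cells) held 1 and 9 UMIs, and naive_T (25 cells) 2 and 1. These small clusters carried too few UMIs for a test between mice.

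Both chains were found together mainly in myeloid cells. At full depth 3084 macrophage-like cells (17.2%) held at least 1 UMI of each chain, against 14.9% from the product of the 2 shares. The same was true of 268 dendritic cell-like cells (14.8% against 11.8%) and 177 neutrophil-like cells (17.0% against 14.3%). In T cells 9 cells held both (0.737% against 0.773%), in NK cells 7 (0.811% against 0.541%) and in tumor cells 223 (0.572% against 0.378%). An excess over the product was thus not particular to myeloid cells. Deeper cells are more likely to show either gene, and the part of depth in the excess over the product was not tested.

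Il2rb, the further chain that IL10/2-Trikine engages, was high in lymphocytes and low in myeloid cells. Its level was 13.1 in NK cells and 6.53 in T cells, against 0.104 in macrophage-like, 0.217 in dendritic cell-like and 0.245 in neutrophil-like cells. At least 1 Il2rb UMI was found in 94.9% of NK, 75.8% of T and 3.04% of macrophage-like cells. All 3 transcripts were captured together in 7 of 863 NK cells (0.811%), 7 of 1221 T cells (0.573%), 121 of 17881 macrophage-like cells (0.677%), 39 of 1814 dendritic cell-like cells (2.15%) and 7 of 1043 neutrophil-like cells (0.671%). All 7 NK cells with both IL-10 chains also held Il2rb. These shares follow depth, and after thinning to 2000 UMIs their order was another, with 0.162% of neutrophil-like, 0.117% of NK, 0.0759% of T, 0.0515% of macrophage-like and 0.0343% of dendritic cell-like cells.

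**Figure D2:**
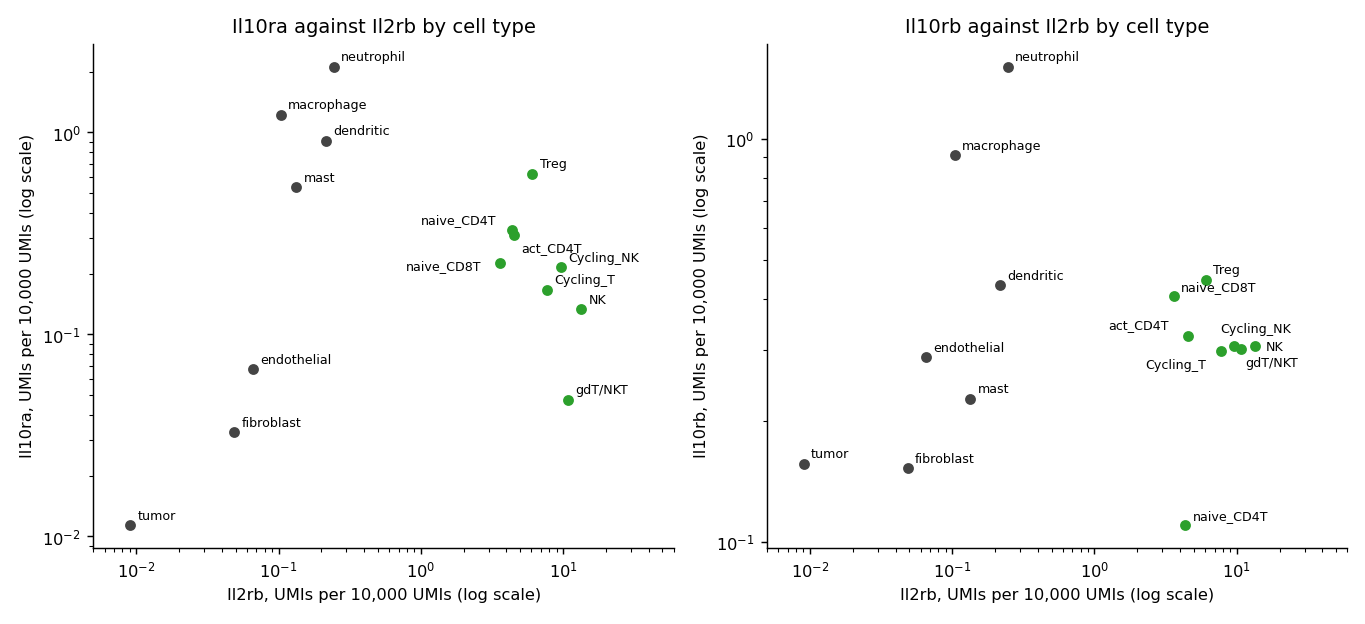
Level of Il10ra (left) and Il10rb (right) against Il2rb in 15 cell types, in UMIs per 10,000 UMIs on log axes, all libraries pooled, with annotated lymphocyte clusters in green and marker-named classes in black. Myeloid classes lie at the left and lymphocytes at the right, for example NK at 13.4 for Il2rb and 0.133 for Il10ra. Treg is the plotted lymphocyte cluster highest in Il10ra (0.626, with Il2rb at 6.09), and tumor cells are low in both Il2rb and Il10ra.

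The treatments were compared over mice in 6 populations with edgeR on UMIs summed per mouse, fitted over all genes of a population and adjusted over all of them. Both members passed the filter on low counts in 4 populations, and 3 of 24 comparisons of a member were called at an adjusted p under 0.05, where the share of all genes called ran from 0.928% to 31.2% between populations and contrasts. All 3 concerned Il10ra, 2 of them in macrophage-like cells and 1 in tumor cells.

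Macrophage-like cells held the most Il10ra UMIs of the named classes, and their Il10ra was lowest after IL10/2-Trikine. In PBS mice 1 to 5 the Il10ra level was 1.27, 1.11, 1.28, 1.37 and 1.32 per 10,000. In mono-IL10 mice it was 1.23, 1.39, 1.21, 1.28 and 1.40. In IL10/2-Trikine mice it was 1.02, 1.06, 1.22, 1.1 and 1.15. Thus 4 of the 5 IL10/2-Trikine mice lay below every mono-IL10 mouse, while mouse 3 lay inside the ranges of the other groups and PBS mouse 2 lay among the IL10/2-Trikine mice.

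The Il10ra difference from PBS was -0.22 on the log2 scale (SE 0.0652, 95% interval -0.35 to -0.09, edgeR adjusted p = 0.0235), in a comparison in which 18.0% of all 12060 genes were called. Against mono-IL10 it was -0.34 (SE 0.0653, -0.47 to -0.21, edgeR adjusted p = 0.00199), where 13.0% of genes were called. Mono-IL10 itself did not change Il10ra past the threshold (0.12, interval 0.00074 to 0.24, edgeR adjusted p = 0.160), although 25.8% of genes were called there. The call against PBS was lost in 4 of 15 fits that left out 1 mouse (PBS mouse 4 or 5, IL10/2-Trikine mouse 1 or 2; edgeR adjusted p up to 0.0844, log2 difference -0.18 to -0.25), and the call against mono-IL10 was kept in 15 of 15. It was also lost after thinning to 2000 UMIs (-0.22, edgeR adjusted p = 0.0582). In cells with at least 2000 genes the differences were larger, at -0.57 and -0.72, and Il10rb was then lower too (-0.24, edgeR adjusted p = 0.0867, against PBS and -0.45, edgeR adjusted p = 0.000781, against mono-IL10).

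Compared as levels instead of fitted counts, the same means were 1.11 after IL10/2-Trikine, 1.27 after PBS and 1.30 after mono-IL10. Exact permutation tests gave p = 0.0238 against PBS and p = 0.0159 against mono-IL10, where the smallest possible p was 0.00794. Neither held after adjustment over the 42 tests of chains, populations and contrasts (exact adjusted p = 0.167 for both).

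Il10rb in the same cells was not called in any of the 3 comparisons. Its levels in PBS mice 1 to 5 were 0.869, 0.921, 0.855, 0.869 and 0.920. They were 0.872, 0.957, 1.0, 0.938 and 0.940 in mono-IL10 mice, and 0.979, 0.897, 0.835, 0.812 and 0.877 in IL10/2-Trikine mice. The 3 groups overlapped.

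The log2 difference of Il10rb between IL10/2-Trikine and PBS was -0.0089 (interval -0.14 to 0.12, edgeR adjusted p = 0.960). Mono-IL10 was above PBS by 0.17 (0.04 to 0.29, edgeR adjusted p = 0.0556) and above IL10/2-Trikine by 0.18, the contrast IL10/2-Trikine minus mono-IL10 being -0.18 (-0.31 to -0.04, edgeR adjusted p = 0.0954). The ratio of Il10ra to Il10rb UMIs per mouse had means of 1.44 ± 0.141 (PBS), 1.39 ± 0.107 (mono-IL10) and 1.27 ± 0.162 (IL10/2-Trikine; SD, n = 5 each). This ratio did not differ past the threshold between any of these groups (exact permutation tests, adjusted p = 0.75 for each pair), so a change of Il10ra relative to Il10rb was not shown.

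Depth and markers of other cells moved with these groups. The median UMIs per macrophage-like cell were 2771 after IL10/2-Trikine, against 5059 after PBS and 6194 after mono-IL10. The summed level of the 5 T cell markers, all detected, in macrophage-like cells was 0.173 to 0.272 in PBS, 0.108 to 0.299 in mono-IL10 and 0.376 to 0.672 in IL10/2-Trikine mice. The 10 macrophage or monocyte markers summed to 84.6 to 102, 107 to 120 and 113 to 127. With every cell thinned to 2000 UMIs, Il10ra was found in 22.3% of PBS, 22.5% of mono-IL10 and 18.9% of IL10/2-Trikine macrophage-like cells, against 45.2%, 50.9% and 27.0% at full depth.

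**Figure D3:**
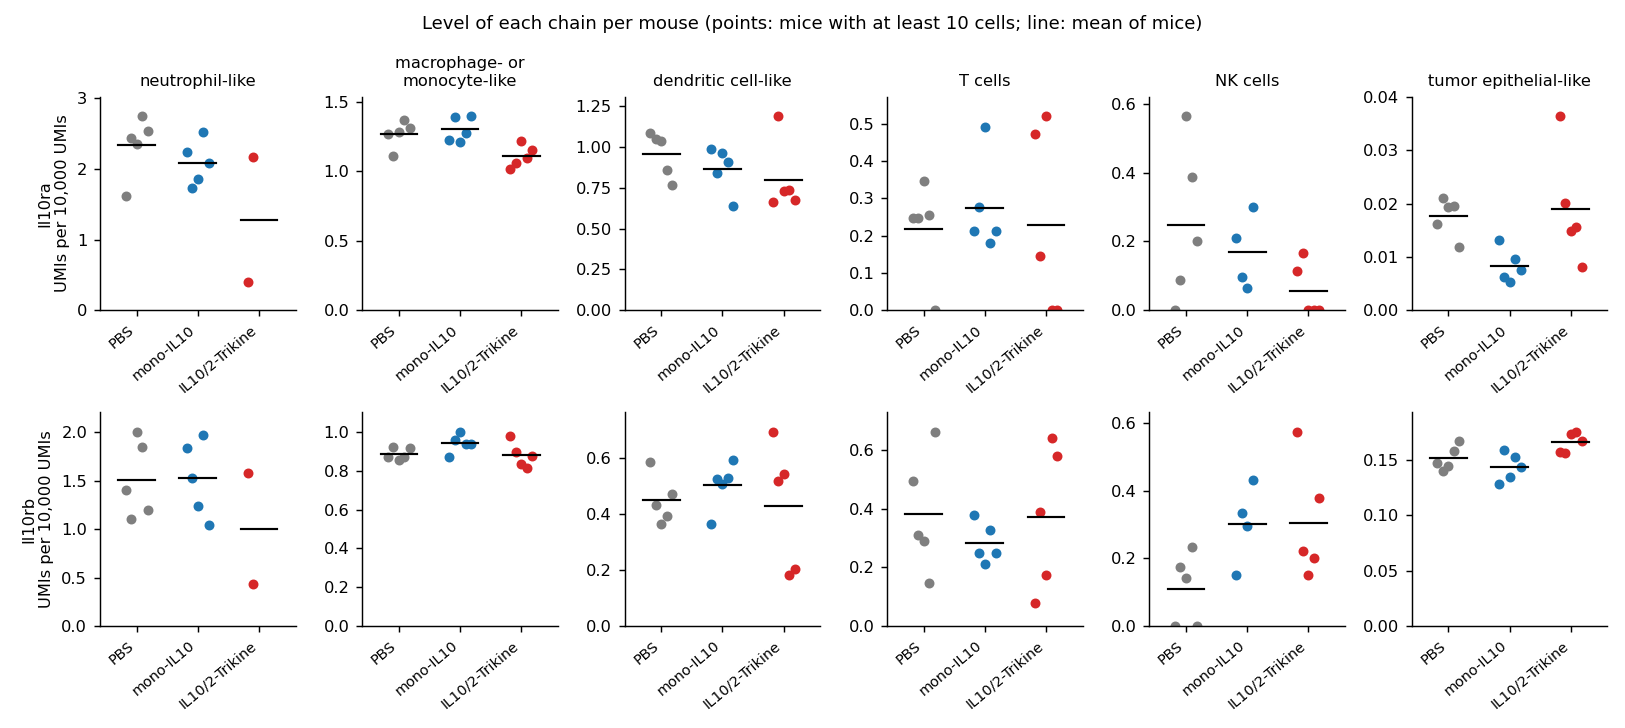
Level of Il10ra (top) and Il10rb (bottom) per mouse in 6 populations, in UMIs per 10,000 UMIs on an axis from 0 that differs between panels. Points are mice with at least 10 cells and black lines are group means. In macrophage-like cells 4 of 5 IL10/2-Trikine mice lie below all mono-IL10 mice for Il10ra, and the groups overlap for Il10rb.

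Macrophage-like cells fell into 10 clusters, which were made without the 2 members among their variable genes and are described without a test. Il10ra was highest in a cluster led by Cx3cr1 and Hpgds (1.52 per 10,000) and close to it in clusters led by the interferon-induced genes Rsad2 and Ifit2 (1.51), by the scavenger receptor Cd163 with Folr2 and Lyve1 (1.49) and by the chemokine Cxcl9 (1.45). It was lowest in a lipid-handling cluster led by Gpnmb, Cd36 and Lpl (0.699), a range of 2.18-fold. The cluster that held most Il10 (led by Il10, Il1a and Tnf) was at 1.27. The libraries filled these clusters unequally. The Cx3cr1 cluster held 1505 PBS, 340 mono-IL10 and 309 IL10/2-Trikine cells, a cluster led by Nrg1 and Pf4 (Il10ra 1.22) held 171, 1422 and 446, and one led by Pf4 and Stab1 (Il10ra 1.11) held 653, 574 and 1728. The part of this makeup in the Il10ra difference of the whole class was not tested, and levels within clusters follow below.

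Il10rb ranged 2.19-fold and in another order. It was 1.11 in the clusters led by Cx3cr1 and by Cd163, and lowest in a cluster led by Ear2, Ccl17 and Mgl2 (0.507), whose Il10ra was 1.04.

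By library, Il10ra was lower after IL10/2-Trikine than after mono-IL10 in 10 of 10 clusters and lower than after PBS in 8 of 10. In the Cd163 cluster the PBS cells had 1.70, the mono-IL10 cells 1.49 and the IL10/2-Trikine cells 1.29, and in the Gpnmb cluster they had 0.802, 0.632 and 0.570. The exceptions against PBS were the clusters led by Il10 (1.12 in PBS, 1.21 in IL10/2-Trikine) and by Pgf and Arg1 (0.919 and 0.951). Il10rb was lower after IL10/2-Trikine than after mono-IL10 in 3 of 10 clusters and than after PBS in 6 of 10. After mono-IL10, Il10ra was lower than after PBS in 6 of 10 clusters and Il10rb in 7 of 10, while the whole-class differences given above were 0.12 and 0.17.

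**Figure D4:**
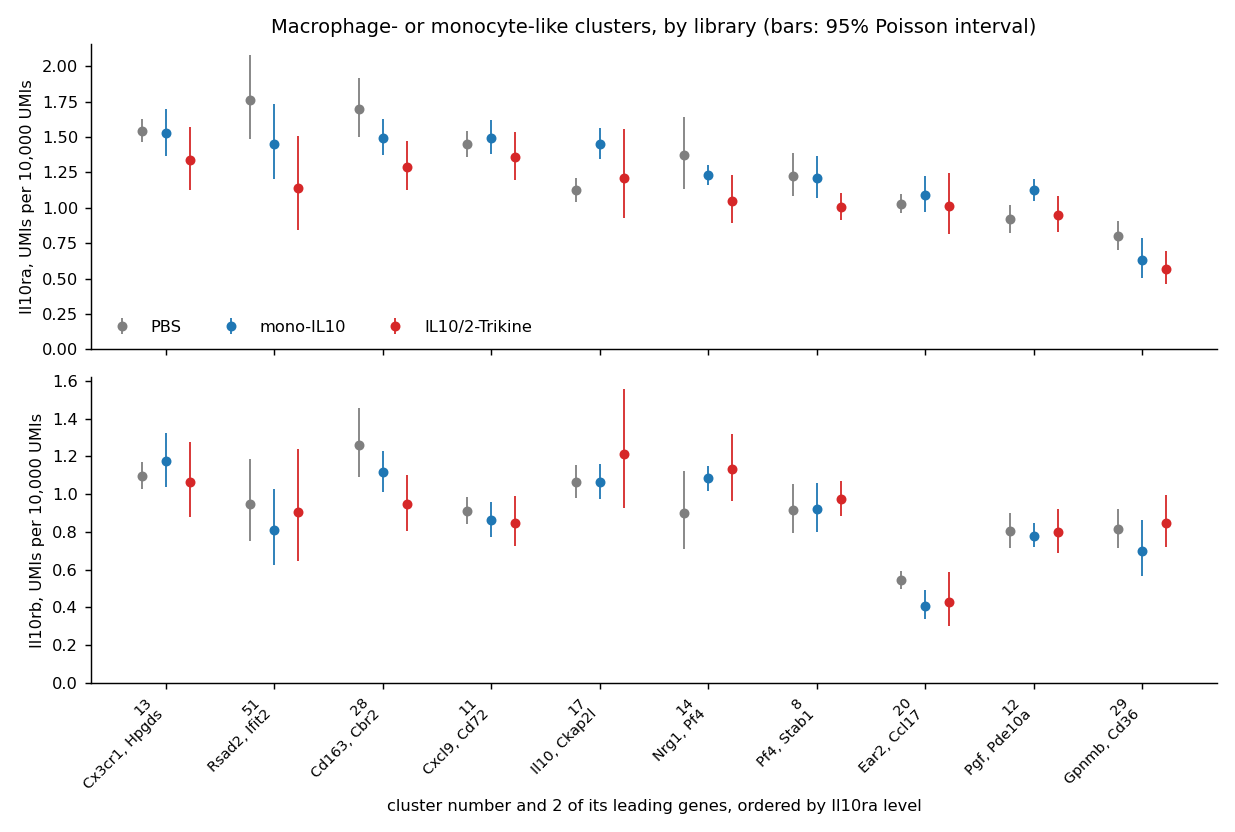
Level of Il10ra (top) and Il10rb (bottom) in 10 macrophage-like clusters by library, in UMIs per 10,000 UMIs with 95% Poisson intervals as bars, clusters ordered by Il10ra. The red points (IL10/2-Trikine) lie below the blue ones (mono-IL10) for Il10ra in 10 of 10 clusters and for Il10rb in 3 of 10.

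Macrophage-like cells with both chains were compared after thinning to 2000 UMIs. Their share per mouse averaged 3.94% ± 0.334 (PBS), 4.11% ± 0.391 (mono-IL10) and 3.29% ± 0.479 (IL10/2-Trikine; SD, n = 5 each), and the 5 IL10/2-Trikine mice lay below the 5 mono-IL10 mice. The exact permutation p for IL10/2-Trikine against mono-IL10 was 0.00794, the smallest this design can give, and 0.127 after adjustment over 16 tests. Against PBS the exact adjusted p was 0.152. At full depth the shares were 19.1%, 24.3% and 6.87% (exact adjusted p = 0.0357 for IL10/2-Trikine against either group), and the median UMIs per cell were lowest after IL10/2-Trikine too.

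**Figure D5:**
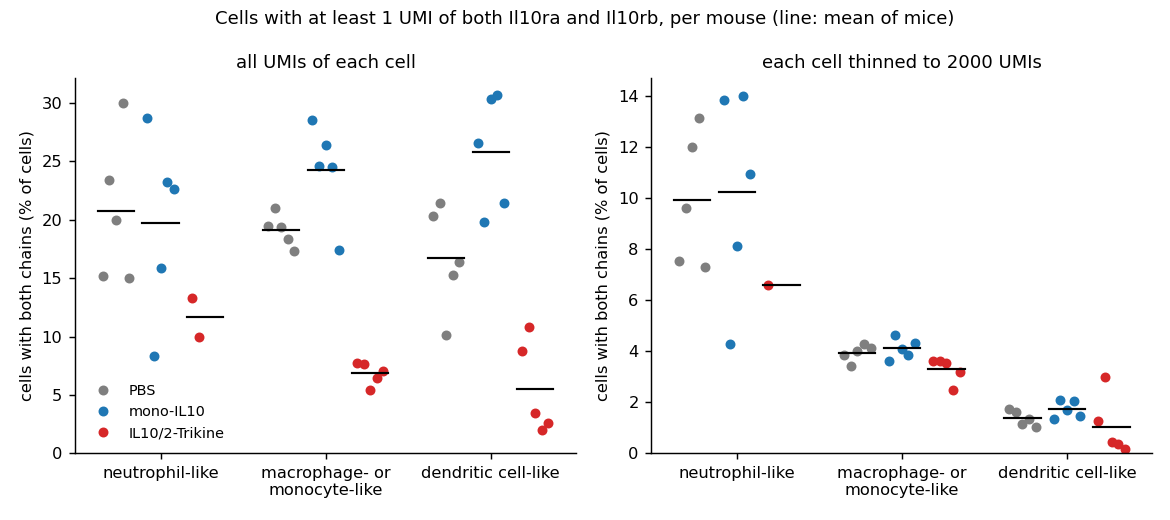
Share of cells with at least 1 UMI of both chains per mouse, in percent of cells, at full depth (left) and after thinning each cell to 2000 UMIs (right), in 3 myeloid populations; points are mice and lines group means. In macrophage-like cells the group means run from 6.87% to 24.3% at full depth and from 3.29% to 4.11% after thinning.

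Dendritic cell-like cells, which present antigen to T cells, showed no called difference in either chain. Il10ra was 1.08, 1.05, 1.04, 0.855 and 0.766 in PBS mice 1 to 5, and 0.987, 0.837, 0.964, 0.908 and 0.639 in mono-IL10 mice. In IL10/2-Trikine mice it was 0.664, 1.19, 0.727, 0.737 and 0.675, so that 4 mice lay below every PBS mouse and mouse 2 above them all. The log2 difference from PBS was -0.29 (interval -0.66 to 0.07, edgeR adjusted p = 0.554), with 1.13% of 7540 genes called. It was -0.17 without IL10/2-Trikine mouse 1 and -0.53 without mouse 2, and not called in either case.

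Mono-IL10 against PBS gave -0.07 for Il10ra (edgeR adjusted p = 0.903, 2.77% of genes called) and IL10/2-Trikine against mono-IL10 -0.22 (edgeR adjusted p = 0.669, 0.928% called), the latter -0.11 without IL10/2-Trikine mouse 1 and -0.47 without mouse 2. For Il10rb the 3 differences in the same order were 0.07, 0.19 and -0.12 (edgeR adjusted p of 0.966, 0.750 and 0.914). Il10rb per mouse spanned 0.365 to 0.587 in PBS, 0.365 to 0.593 in mono-IL10 and 0.184 to 0.696 in IL10/2-Trikine. Within this class the Clec9a and Xcr1 cluster (type 1 dendritic cells by these genes) held 0.854 of Il10ra and 0.313 of Il10rb, the Cd209a and Mgl2 cluster 0.958 and 0.473, and the mature cluster led by Ccl22, Ccr7 and Fscn1 0.872 and 0.490.

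Neutrophil-like cells had the highest levels of both chains, but only 47 cells so named came from the IL10/2-Trikine library. Other clusters with S100a8 and S100a9 among their leading genes stayed unnamed, as their best score was for tumor or macrophage markers. They held 603, 724, 637 and 411 PBS, 281, 404, 179 and 153 mono-IL10 and 890, 327, 154 and 111 IL10/2-Trikine cells. The share of neutrophils in them was not tested. Il10ra was 1.61, 2.43, 2.35, 2.75 and 2.53 in PBS mice 1 to 5 and 2.24, 1.73, 1.86, 2.53 and 2.09 in mono-IL10 mice. The 2 IL10/2-Trikine mice with at least 10 cells (15 and 10 cells) had 0.394 and 2.17. The second lay inside the range of the other groups and the first below it.

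The log2 difference of Il10ra from PBS was -1.34 (SE 0.498, edgeR adjusted p = 0.217, with 1.47% of 3327 genes called) and from mono-IL10 -1.24 (edgeR adjusted p = 0.197, 2.71% called). Leaving out IL10/2-Trikine mouse 2, which left 1 mouse assumed to vary like the others, gave -2.74 and -2.65 (edgeR adjusted p of 0.0483 and 0.0375), and without mouse 1 the values were -0.43 and -0.33. Mono-IL10 and PBS differed by -0.10 (edgeR adjusted p = 0.870, 2.37% called). Il10rb differences were -0.39, 0.15 and -0.54 for IL10/2-Trikine against PBS, mono-IL10 against PBS and IL10/2-Trikine against mono-IL10, with edgeR adjusted p from 0.639 to 0.809. The differences of IL10/2-Trikine from PBS and mono-IL10 were -2.09 and -2.24 without its mouse 1, and -0.11 and -0.27 without its mouse 2. C1q in these cells was 8.42 after IL10/2-Trikine, against 3.41 after PBS and 2.19 after mono-IL10, and its part in the values was not tested.

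Tumor epithelial-like cells had Il10rb at a steady level and traces of Il10ra. Il10rb was 0.147, 0.14, 0.145, 0.157 and 0.167 in PBS mice 1 to 5 and 0.128, 0.159, 0.134, 0.152 and 0.144 in mono-IL10 mice. It was 0.157, 0.156, 0.173, 0.175 and 0.167 in IL10/2-Trikine mice. The groups overlapped. The log2 difference between IL10/2-Trikine and PBS was 0.17 (interval 0.05 to 0.29, edgeR adjusted p = 0.0557), with 21.1% of 14867 genes called, and that between IL10/2-Trikine and mono-IL10 0.14 (edgeR adjusted p = 0.0914), with 31.2% called.

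Il10ra in tumor cells was 0.0163, 0.0210, 0.0194, 0.0195 and 0.0120 in PBS mice, and 0.0132, 0.00624, 0.00523, 0.00961 and 0.00759 in mono-IL10 mice. In IL10/2-Trikine mice it was 0.0365, 0.0202, 0.0150, 0.0156 and 0.00817. It was higher after IL10/2-Trikine than after mono-IL10 by 1.01 on the log2 scale (SE 0.317, 0.39 to 1.64, edgeR adjusted p = 0.0219). The call was lost without IL10/2-Trikine mouse 2 (0.96, edgeR adjusted p = 0.0518).

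Mono-IL10 was lower in Il10ra than PBS by -0.97 (SE 0.303, edgeR adjusted p = 0.0765), in a comparison with 4.64% of genes called, and IL10/2-Trikine and PBS differed by 0.04 (edgeR adjusted p = 0.951). C1q moved along with these values: tumor cells held 0.312 after PBS, 0.186 after mono-IL10 and 0.389 after IL10/2-Trikine, with 4.62, 3.71 and 3.42 Il10ra UMIs per 100 C1q UMIs. The 10 macrophage or monocyte markers, all detected, summed to 0.834 to 1.07 (median 0.861) in PBS and 0.57 to 0.980 (median 0.643) in mono-IL10 mice. In IL10/2-Trikine mice they summed to 0.806 to 2.90 (median 0.880). The part of RNA from macrophages in the Il10ra values was not tested. In 2 tumor clusters led by interferon-induced genes (Iigp1 and Cxcl10, and Ifit1 and Isg15) Il10ra was 0.0342 and 0.0407, against 0.00742 to 0.0135 in the other 7 tumor clusters.

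In T and NK cells the receptor UMIs were too few for the filter on low counts, so neither chain was among the 3189 genes tested in T cells (8.97%, 1.72% and 12.3% called for IL10/2-Trikine against PBS, mono-IL10 against PBS and IL10/2-Trikine against mono-IL10) or the 2355 tested in NK cells (4.42%, 0.297% and 2.38%). In NK cells, Il10ra was 0, 0.0869, 0.564, 0.389 and 0.201 in PBS mice 1 to 5 and 0.210, 0.0956, 0.0655 and 0.301 in the 4 mono-IL10 mice with at least 10 cells. In IL10/2-Trikine mice it was 0.115, 0.166, 0, 0 and 0. The ranges overlapped, and the means of 0.0561 after IL10/2-Trikine and 0.248 after PBS gave an exact permutation p = 0.127 (adjusted 0.378).

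Pooled over cells with and without a hashtag, the NK cells held 18 Il10ra UMIs in 174 PBS cells (0.279, 0.165 to 0.441), 21 in 263 mono-IL10 cells (0.141, 0.0875 to 0.216) and 8 in 426 IL10/2-Trikine cells (0.0669, 0.0289 to 0.132). The PBS and IL10/2-Trikine counting intervals did not overlap, but each is 1 library, and without the filter the edgeR log2 difference over mice was -1.86 with an adjusted p of 0.508. Cycling_NK cells held 0 Il10ra UMIs in the 54 cells of the IL10/2-Trikine library and 4 UMIs in the 4 PBS cells. The 0 allows up to 5.56% of cells with a captured UMI and does not bound the share that expresses Il10ra.

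Il10rb in NK cells was 0, 0.174, 0.141, 0.233 and 0 in PBS mice, and 0.15, 0.334, 0.295 and 0.431 in mono-IL10 mice. It was 0.575, 0.221, 0.15, 0.2 and 0.378 in IL10/2-Trikine mice, so that 2 of these 5 lay above every PBS mouse. In the NK cluster without the cycling cells the means were 0.337 after IL10/2-Trikine and 0.0814 after PBS (exact permutation p = 0.0159, adjusted 0.167). Without the filter, the edgeR log2 differences of NK cells from PBS were 1.09 for IL10/2-Trikine and 1.16 for mono-IL10, with adjusted p of 0.733 and 0.703.

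In T cells Il10ra spanned 0 to 0.346 in PBS, 0.18 to 0.491 in mono-IL10 and 0 to 0.521 in IL10/2-Trikine mice, and Il10rb spanned 0.146 to 0.662, 0.211 to 0.378 and 0.0790 to 0.641. Without the filter the edgeR adjusted p of every T cell comparison of a member was at least 0.777. Tregs held Il10ra at 0.621 after PBS (8 UMIs), 0.685 after mono-IL10 (10 UMIs) and 0.497 after IL10/2-Trikine (3 UMIs). In naive_CD8T cells 15 Il10ra UMIs came from 160 mono-IL10 cells and 0 from 38 PBS cells. The 0 allows up to 7.89% of cells with a captured UMI there and does not bound the share that expresses Il10ra. In lymphocytes no difference of either chain between treatments passed the threshold after adjustment. With so few UMIs these tests cannot exclude one.

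Of the 8 IL-10 signalling genes, all tested in macrophage-like cells, 2 were called after IL10/2-Trikine against PBS, where 18.0% of all genes were called. Il10ra was the only one called lower against PBS after IL10/2-Trikine, and Stat3, the transcription factor of the receptor, was the only one called higher (0.28, edgeR adjusted p = 0.00764). After mono-IL10, Stat3 (0.51) and Socs3, a feedback inhibitor (0.59), rose and none fell, 2 of 8 beside 25.8% of all genes. Between the treatments (13.0% of all genes called) Il10ra, Stat3 (-0.23) and Socs3 (-0.62) were lower after IL10/2-Trikine. Stat3 was 2.34, 2.11, 2.38, 2.6 and 2.71 per 10,000 in PBS mice, 3.38, 3.47, 2.85, 3.23 and 3.34 in mono-IL10 mice and 3.10, 2.88, 3.21, 2.90 and 2.77 in IL10/2-Trikine mice, so all treated mice lay above all PBS mice. Il10, Jak1 and Tyk2 were not called in any of the 3 comparisons.

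Of the 11 genes of the class II cytokine receptor family, to which both chains belong, 7 were tested in macrophage-like cells. Il10ra was the 1 called against PBS after IL10/2-Trikine, a share not above the 18.0% of all genes. Ifnar2, a chain of the type I interferon receptor, was called after mono-IL10 (0.25, with 25.8% of all genes called), and Il10ra, Ifnar2 (-0.38) and Ifnar1 (-0.23) were lower after IL10/2-Trikine than after mono-IL10 (3 of 7, with 13.0% of all genes called). Il10rb, which lies between Ifnar2 and Ifnar1 on chromosome 16, was not called in any of the 3. Among the ligands of IL-10Rβ, Il10 was the only one of 4 with enough counts in these cells.

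Known IL-10 response genes were also tested in macrophage-like cells. Of 11, 7 rose and 2 fell after mono-IL10 (25.8% of all genes called), and 3 rose and 3 fell after IL10/2-Trikine (18.0% called). Cd163, a hemoglobin scavenger receptor, went from 0.193 ± 0.103 in PBS to 1.30 ± 0.655 after mono-IL10 (log2 2.82) and 1.43 ± 0.632 after IL10/2-Trikine (log2 2.84; SD, n = 5 each). Il4ra, the IL-4 receptor chain, rose by 1.27 and 1.07 and Sbno2, a STAT3-induced co-repressor, by 0.56 and 0.41, while Tnip3 fell by 1.13 and 0.98. Etv3 was also called lower after both cytokines, and Il1r2 after IL10/2-Trikine. Socs3 (0.59), Il1rn (0.58), Nfil3 (0.62) and Hmox1 (0.34) were called after mono-IL10, and Socs3 and Il1rn (-0.49) were lower after IL10/2-Trikine than after mono-IL10. In dendritic cell-like cells 2 of 11 rose after mono-IL10 (Il1r2 0.62 and Il4ra 0.62, with 2.77% of all genes called) and 0 were called after IL10/2-Trikine (1.13% called). Il1r2 there was called lower after IL10/2-Trikine than after mono-IL10 (1 of 11, with 0.928% called). In neutrophil-like cells, with 2 IL10/2-Trikine mice, Il1r2 was called lower than after PBS and than after mono-IL10 (1 of 8 tested, with 1.47% and 2.71% called). Il1rn rose there after mono-IL10 (1 of 8, with 2.37% called). In tumor cells, which held only traces of Il10ra, genes of this list were called as well. Against PBS, 1 of 11 rose and 4 fell after IL10/2-Trikine (21.1% called), and 0 were called after mono-IL10 (4.64% called). Between the treatments 2 were higher and 5 lower after IL10/2-Trikine (31.2% called). Cd163 was higher in both of these IL10/2-Trikine comparisons. The part of RNA from macrophages in these values was not tested.

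The 8 macrophage subset genes were mostly called as well. After IL10/2-Trikine (18.0% of all genes called), 4 rose (Mrc1 1.13, Cd163 2.84, Folr2 0.97 and Arg1 0.81) and 2 fell (Cx3cr1 -1.12 and Ccr2 -0.69), and after mono-IL10 (25.8% called) the same 4 rose and 4 fell, Plac8 and Ly6c2 in addition.

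Of the 3 IL-2 receptor chains, Il2rb and Il2ra were called higher in macrophage-like cells after IL10/2-Trikine than after PBS (1.53 and 1.73, with 18.0% of all genes called) and than after mono-IL10 (1.79 and 2.05, with 13.0% called). Il2rb was 0.0611 to 0.124 per 10,000 in PBS and 0.184 to 0.324 in IL10/2-Trikine mice, beside the higher T cell markers given above and NK markers (5 of 5 detected) of 0.0365 to 0.0739 in PBS and 0.104 to 0.147 in IL10/2-Trikine. The regulatory T cell markers (5 of 5 detected, Il2ra being 1 of them) were at 0.243 to 0.419 in PBS and 0.640 to 1.17 in IL10/2-Trikine, and Il2ra was 20.6 per 10,000 in the Treg cluster. The part of these markers in the Il2rb and Il2ra values was not tested. Il2rg in macrophage-like cells was called higher only after mono-IL10 against PBS (25.8% of all genes called). In tumor cells too, Il2rb was called higher after IL10/2-Trikine than after PBS (21.1% called). Against mono-IL10, Il2rb and Il2ra were both called higher there (31.2% called).

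In T cells Il2rb rose by 0.46 after IL10/2-Trikine against PBS, and Il2rb (0.72) and Il2ra (0.92) were higher than after mono-IL10. The NK markers in these T cells were 1.35 to 3.50 in PBS, 1.16 to 2.13 in mono-IL10 and 4.49 to 7.19 in IL10/2-Trikine mice, and the T cell markers 23.4 to 29.7, 33.7 to 37.8 and 15.2 to 20.8. The Cycling_T cluster held 174 of 299 T cells after IL10/2-Trikine, 120 of 580 after mono-IL10 and 55 of 342 after PBS. The part of these shifts in the Il2rb and Il2ra values was not tested. In T cells, 0 of 5 tested IL-10 signalling genes were called in any comparison (1.72% to 12.3% of all genes called).

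The genes most like Il10ra over the 15 cell types were Plxnc1 (a semaphorin receptor, Pearson r of 0.927), Adam8 (0.926), Lilrb4a (an inhibitory leukocyte receptor, 0.911), Synj1 (0.910) and Wfdc17 (0.909). Those most like Il10rb were Vps4b (an endosomal sorting ATPase, 0.920), Cd300lb (0.888), Cd300ld (0.886), Atp6v1d (a subunit of the lysosomal proton pump, 0.882) and Mtmr6 (0.882). The cell types share libraries and free RNA, and these correlations are a description over 15 points.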

How the data were processed

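Droplet 5′ single-cell libraries (GEM-X) and hashtag libraries were deposited for 3 treatment groups. The authors' matrices hold raw UMI counts from Cell Ranger 9.0.1 (GRCm39, filtered barcodes), with no normalization, and the deposited table of annotated T and NK cells gives per-cell counts, percent of mitochondrial UMIs, mouse and cluster. The authors' notes name Seurat 5.1.0 and DESeq2 1.46.0. Its 7858 cells from a treatment without a sample in this series were left out.

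Following the study's methods, barcodes under 1000 genes or above 10% mitochondrial UMIs were dropped. Hashtags were called with HTODemux (Seurat 5.3.0, quantile 0.99), and barcodes with more than 1 hashtag (8.50% to 12.2%) were removed as doublets. Of annotated cells, 93.2% to 98.8% received the same call and 0 another mouse, and 24.7% to 44.8% had no mouse and entered pooled values only. Log-normalized values of 2000 variable genes without the members were reduced to 40 components and grouped by k-means into 60 clusters (scikit-learn 1.9.0, numpy 2.4.6, Python 3.11.15). A cluster was named when the best marker score was at least 0.25 with at least 3 markers and every other lineage stayed at or under 0.2 of it. That ratio was tightened from 0.25 after 1 cluster with T cell leading genes had taken a macrophage name. Unnamed clusters held 29.1% of 92851 cells.

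UMIs were summed per mouse with at least 10 cells and tested with edgeR 4.0.16 (TMM, filterByExpr, quasi-likelihood, R 4.3.3), with Benjamini-Hochberg adjustment over all genes and a threshold of 0.05. For levels and shares, two-sided permutation tests over mice were exact (scipy 1.17.1). The scripts were tested on simulated counts. Intervals are 95% Poisson or Clopper-Pearson, and a count of 0 allows 3 counts. Intervals and floors cover counting error only. Alternatives were DESeq2 1.42.0, no filter, only the 2 groups compared, each mouse left out, at least 2000 genes, thinning to 2000 UMIs, the mean over cells, and 30 components with 40 clusters. The per-mouse ratio of the chains and the counts over macrophage-like clusters were added after seeing the data. The members, gene lists and marker lists were chosen with earlier results of these data known. Genes named are the members, the genes of the lists where a list needed them, and the 5 genes most correlated with each member over cell types with at least 50 cells, on log2(CPM + 10), among 7042 genes with at least 50 CPM in a cell type.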

Additional observations from a re-analysis of the deposited data

Results flagged for a closer look

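Of 50 groups of 4 or 5 mice, 7 had 1 mouse farther from the others than Dixon's 95% limit (in 1 of 20 groups by chance, for values without ties). In 3 of the 7 every other mouse was at 0, so that any positive mouse would pass that limit. Il10ra in dendritic cell-like cells of IL10/2-Trikine mouse 2 was 1.19 per 10,000 (74 cells), against 0.664 to 0.737 in the other 4 mice. In T cells of PBS mouse 5 it was 0.0 (27 cells), against 0.247 to 0.346. The other 5 concerned the share of cells with both chains after thinning, which was highest in NK cells of PBS mouse 3 (0.797%, 20 cells) and mono-IL10 mouse 5 (1.42%, 35 cells), in T cells of PBS mouse 1 (0.127%, 50 cells) and IL10/2-Trikine mouse 2 (0.172%, 65 cells), and in tumor cells of IL10/2-Trikine mouse 1 (0.0484%, 745 cells, with C1q at 1.80 per 10,000).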

How the results depend on the processing

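Il10ra in macrophage-like cells was lower after IL10/2-Trikine than after mono-IL10 under every alternative and each of 15 omissions of a mouse (-0.30 to -0.36 over the omissions). Against PBS it was lower throughout, between -0.18 and -0.25 over the omissions, with the call lost in 4 of 15 and after thinning (-0.22, edgeR adjusted p = 0.0582). Over all results the alternatives gave 172 values on the same side of the threshold and of 0, 15 newly past it, 16 with the other sign and 1 call lost, and the omissions gave 313, 12, 12 and 5. The causes were not tested. Few UMIs of the members per mouse limit the small populations. Thinning in the fits draws 1 random subset of UMIs, while thinned shares and levels are expected values over all draws. For neutrophil-like cells too few had 2000 genes, and thinned Il10ra of tumor cells had too few counts to be fitted.

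The values that turned sign were not called under any fit of counts. Thinning gave, for Il10ra in dendritic cell-like cells, 0.0045 (mono-IL10 against PBS), and for Il10rb 0.0961 in macrophage-like, 0.66 in neutrophil-like and -0.0221 in tumor cells (IL10/2-Trikine against PBS), 0.50 in dendritic cell-like and 0.40 in neutrophil-like cells (against mono-IL10), and -0.0729 in dendritic cell-like and -0.23 in tumor cells (mono-IL10 against PBS). With 30 components and 40 clusters, IL10/2-Trikine against mono-IL10 in dendritic cell-like cells gave 0.0706 (Il10ra) and 0.22 (Il10rb), mono-IL10 against PBS gave -0.0796 for Il10rb there, and Il10ra in tumor cells (IL10/2-Trikine against PBS) gave -0.14. Without the filter Il10rb in dendritic cell-like cells (IL10/2-Trikine against PBS) was -0.0164.

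Newly called by edgeR or DESeq2 were Il10ra in tumor cells for mono-IL10 against PBS (-1.15 with 40 clusters, -0.97 with DESeq2, -0.98 with only the 2 groups), Il10rb in tumor cells (0.18 with 40 clusters for IL10/2-Trikine against either group, and 0.18 with only the 2 groups against PBS), Il10rb in macrophage-like cells (mono-IL10 against PBS 0.20 with 40 clusters and 0.21 with at least 2000 genes; IL10/2-Trikine against mono-IL10 -0.45 with at least 2000 genes), Il10ra in neutrophil-like cells against mono-IL10 (-1.66 without the filter) and, by the exact test, Il10rb in dendritic cell-like above T cells (0.236 with at least 2000 genes). Without thinning, the share with both chains after IL10/2-Trikine differed from PBS and mono-IL10 by -12.2 and -17.4 percentage points in macrophage-like, -11.2 and -20.2 in dendritic cell-like and -1.40 and -0.921 in tumor cells (the last 2 with the sign turned). In neutrophil-like cells the sign turned too for mono-IL10 minus PBS, which was -0.988 percentage points without thinning.

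Leaving out 1 mouse gave these ranges for IL10/2-Trikine against PBS: Il10ra -0.53 to -0.17 in dendritic cell-like, -2.74 to -0.43 in neutrophil-like and -0.21 to 0.23 in tumor cells (-0.0681 and -0.0232 among them), Il10rb -0.34 to 0.23 in dendritic cell-like (-0.00050 among them), -0.0584 to 0.0262 in macrophage-like (0.0096, 0.0172 and 0.00021 among them), -2.09 to -0.11 in neutrophil-like and 0.15 to 0.20 in tumor cells. Against mono-IL10 they were Il10ra -0.47 to -0.11 in dendritic cell-like, -2.65 to -0.33 in neutrophil-like and 0.77 to 1.22 in tumor cells, and Il10rb -0.53 to 0.0315 in dendritic cell-like, -2.24 to -0.27 in neutrophil-like and 0.11 to 0.18 in tumor cells. For mono-IL10 against PBS they were Il10ra -0.13 to 0.0290 in dendritic cell-like and -1.18 to -0.87 in tumor cells, and Il10rb 0.14 to 0.20 in macrophage-like and -0.0133 to 0.0652 in tumor cells. No paired analysis was possible because the hashtag numbers of different groups mark different mice.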
